A study of Mus musculus with 5 samples.

Results

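Pparg and 9 genes whose products act on lipid droplets or carry fatty acids, 10 genes in all of the 55397 listed, were followed in liver tumours with and without late Prox1 overexpression (Prox1 OE). They were Pparg, the CIDE genes Cidea, Cideb and Cidec, the perilipin genes Plin2, Plin4 and Plin5, and Fitm1, G0s2 and Fabp4. Members were found by gene symbol, and the group was chosen by their known roles with the Prox1 OE over Control fold changes of these same tumours in view. Their fold changes and calls are therefore given as a description and not as a test. Each of the 10 was expressed well above the filter on low values, so that none was left out.

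The data were RNA-seq profiles of dissected liver tumours from female C57BL/6N mice injected at 8 weeks of age, 2 from Control mice and 3 from Prox1 OE mice. All mice received Sleeping Beauty transposase with transposon plasmids for Akt (pT3-EF1a-AKT) and for the NOTCH1 intracellular domain with the doxycycline-dependent activator rtTA (pT3-EF1a-NICD-IRES-rtTA), pushed into the liver by hydrodynamic tail vein injection. Control mice also received pT3-Tre-IRES-GFP, and Prox1 OE mice pT3-Tre-FLAG-mmProx1-IRES-GFP, both silent until doxycycline is given. Doxycycline food (6.25%) started at day 21, for overexpression from week 3 to week 4, and the protocol is worded the same for all 5 samples. Tumours were taken after that week or at a humane endpoint, and which applied to which tumour is not stated. Akt and NICD were driven by the EF1a promoter in whichever cells kept the transposon, every tumour is a mixture of tumour and host cells, and the labels do not say whether each library came from 1 nodule or from 1 mouse. P-values therefore measure only the spread between these samples.

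Lipid droplets store triglyceride and cholesterol ester in a core that is covered by a single layer of phospholipid and by coat proteins. PPARG is a nuclear receptor that binds DNA together with an RXR partner and drives fat cell formation, and in hepatocytes it is known for switching on lipid storage genes in fatty liver. Perilipins coat droplets and control the access of lipases, CIDE proteins exchange lipid between droplets so that they grow, and FITM proteins help to partition new triglyceride into droplets.

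Totals ran from 48740863 to 56629477 reads per library and overlapped between the groups. Normalised totals did not overlap, at 43279087 and 45811088 in Control and 57408862 to 65539843 in Prox1 OE. Prox1 had 4153 and 4664 normalised counts in Control replicates 1 and 2 and 48090, 11113 and 8231 in Prox1 OE replicates 1, 2 and 3, so that replicate 1 stood apart from the other Prox1 OE libraries. The tumours are labelled as transformed hepatocytes. Each of the 8 hepatocyte markers was detected in every library, with 589551 and 1009580 summed normalised counts in Control and 2075605 to 3322434 in Prox1 OE, and so was each of the 8 cholangiocyte markers, with 758323 and 827412 in Control and 523619 to 707585 in Prox1 OE. Each sum was mostly a single gene. Alb had 480677 and 798691 in Control and 1559106 to 2594529 in Prox1 OE, and Spp1 had 712010 and 784749 in Control and 509317 to 688825 in Prox1 OE. The sums therefore say little about the other markers.

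The sequences before 2 start sites are shown because Plin2 had the highest level per kb of all members and Cidec the most even values among the Prox1 OE libraries. Of the 10 members, 8 had promoter windows in the RefSeq table for GRCm38.p6 (12 windows of 300 bases, from 250 before to 50 after a start site). The PPAR half-site AGGTCA, repeated in the same direction with any single base between the copies (DR1), was searched on both strands with at most 2 mismatches over the 12 half-site bases. In the members, 1 of the 12 windows held a match, that of Plin2, and 3.86% of all 32851 windows held one. The stretches below lie on the minus strand of chr4:86670061-86670309 for Plin2 and of chr6:113435761-113436010 for Cidec, are written in the direction of transcription and stop short of the transcribed part. Capitals mark the match.
Plin2: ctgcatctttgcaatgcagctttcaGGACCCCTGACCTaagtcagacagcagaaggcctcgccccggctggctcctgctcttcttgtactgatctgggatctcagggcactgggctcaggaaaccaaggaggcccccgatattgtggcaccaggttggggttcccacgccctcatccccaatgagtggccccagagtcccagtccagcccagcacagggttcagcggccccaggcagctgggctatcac
Cidec: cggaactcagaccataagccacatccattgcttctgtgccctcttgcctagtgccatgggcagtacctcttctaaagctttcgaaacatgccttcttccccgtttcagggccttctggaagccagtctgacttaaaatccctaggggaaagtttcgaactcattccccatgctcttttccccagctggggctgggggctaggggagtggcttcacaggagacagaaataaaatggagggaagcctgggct
Read on the opposite strand, the Plin2 match (chr4:86670272-86670284) is AGGTCAgGGGTCC, with 10 of 12 bases matching and its far end 225 bases before the start site. No match was found in the windows of Pparg, Cideb, Cidec, Plin4, Plin5, Fitm1 or G0s2, which says only that these letters are not in these windows. Whether the factor binds any of them was not measured here.

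Lipid droplet genes were higher in Prox1 OE tumours, with 9 of the 10 members above both Control values in all 3 Prox1 OE libraries and Fabp4 as the exception. The rises went from 0.51 for Plin4 to 2.17 for Fitm1 on the log2(normalised count + 1) scale, and the median over the 10 members was 1.59 beside -0.02 over all 17105 genes tested. By limma's adjusted p under 0.05, 9 members were called higher and 0 lower. Among all genes tested, 33.3% were called, 17.1% as higher and 16.2% as lower, and 30.9% had every Prox1 OE value above both Control values. The members were chosen on this contrast, so nothing is read from their count. In bulk tumours, fewer cells of a type and less RNA per cell cannot be told apart.

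**Figure D1:**
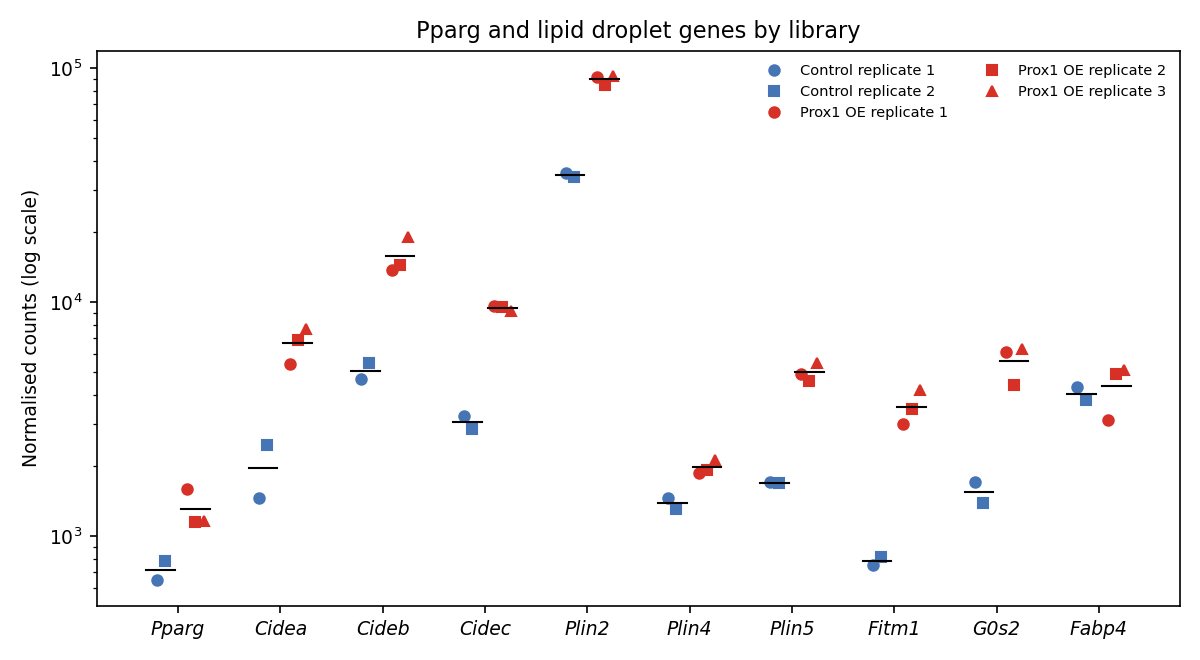
Normalised counts of the 10 members in each library on a log axis, with Control in blue, Prox1 OE in red, a symbol per replicate and a black line at each group mean. Red points lie above both blue points for every gene except Fabp4, where 3137 in Prox1 OE replicate 1 is the lowest of the 5 values.

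Pparg (ENSMUSG00000000440), on mm10 chromosome 6 (115360951 to 115490399, plus strand), is the only transcription factor of the group. It had 646 and 782 normalised counts in Control replicates 1 and 2 and 1581, 1153 and 1164 in Prox1 OE replicates 1, 2 and 3. All 3 Prox1 OE values lay above both Control values, and replicate 1, the library with the most Prox1, had the most Pparg. Of the macrophage markers, that library also had the most Lyz2 (26966 normalised counts, against 13777 and 15865 in replicates 2 and 3). The same held for Csf1r (5462, against 3588 and 4397), Cd68 (3070.5, against 1832.5 and 1801), Adgre1 (2078, against 1137.5 and 1471) and Trem2 (1543, against 1280 and 969). Clec4f (4119, 4690 and 8473) and Marco (501, 624 and 1159) were lowest in it, and Timd4 (231, 217 and 420) was neither. The part of macrophages in the Pparg values was not tested. The log2 fold change was 0.85 (SE 0.18, 95% interval 0.43 to 1.28), the third smallest of the group. The call was lost with the total count as library size (0.42, adjusted p = 0.12) and without Control replicate 1 (0.71, again with an adjusted p of 0.12). Genes with the most similar profile over the 5 libraries, among 12970 with a mean of at least 100 normalised counts, were Acad10, Zfpm1 and Tbcel, with root mean square log2 differences from Pparg of 0.05, 0.07 and 0.09. Acad10, for one, had 540 and 661 normalised counts in Control and 1336, 1063 and 980 in Prox1 OE.

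The 3 CIDE genes were higher by 1.62 to 1.81 on the log2 scale. Cidea (ENSMUSG00000024526, chromosome 18, 67343604 to 67367785), which is known from brown fat and from fatty liver, had 1451 and 2440 normalised counts in Control and 5445, 6905 and 7637 in Prox1 OE. The Control values were further apart than for any other member, at 1.68-fold, yet the lowest Prox1 OE value was 2.23 times the highest Control value. Its log2 fold change was 1.81 (SE 0.24), and it ran from 1.43 to 2.18 over fits that each left out a library. Cideb (ENSMUSG00000022219, chromosome 14, 55754050 to 55758458), the CIDE gene of healthy hepatocytes with a role in lipoprotein loading, had 4667 and 5477 in Control and 13711, 14444 and 18916 in Prox1 OE. The groups were far apart, with a log2 fold change of 1.62 (SE 0.17). Cideb shares 1136 exon bases with Nop9 on the opposite strand, and the counting of strand was not stated. Nop9 had 1384 and 1528 normalised counts in Control and 1409 to 1529 in Prox1 OE, and its groups overlapped.

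Cidec (ENSMUSG00000030278, chromosome 6, 113424634 to 113435760), whose protein sits where droplets touch and makes them fuse, had 3251 and 2878 normalised counts in Control and 9575, 9559 and 9195 in Prox1 OE. Its Prox1 OE libraries were the most even of all members, with a coefficient of variation of 2.27%, although Prox1 itself ranged from 8231 to 48090 in them. The log2 fold change was 1.63 (SE 0.11, 95% interval 1.36 to 1.89). Cidec lies 1925.2 kb from Pparg on the same chromosome.

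Among the perilipins, Plin2 and Plin5 had larger log2 fold changes than Plin4. Plin2 (ENSMUSG00000028494, chromosome 4, 86648386 to 86670060), the main droplet coat of hepatocytes, had 35670 and 34380 normalised counts in Control and 91495, 84528 and 92457 in Prox1 OE. The values within each group were close together, and the log2 fold change was 1.35 (SE 0.16). Plin5 (ENSMUSG00000011305, chromosome 17, 56111601 to 56117596), which tethers droplets to mitochondria in oxidative tissues, had 1697 and 1678 in Control and 4936, 4595 and 5507 in Prox1 OE, again far apart, with a log2 fold change of 1.57 (SE 0.12). Plin4 (ENSMUSG00000002831, chromosome 17, 56100591 to 56109803), a coat protein best known from fat and muscle, had 1458 and 1302 in Control and 1854, 1915 and 2120 in Prox1 OE. The lowest Prox1 OE value was only 1.27 times the highest Control value, and the log2 fold change was 0.51 (SE 0.12). Its call was lost without Control replicate 1 (0.59, adjusted p = 0.098), without Control replicate 2 (0.43, adjusted p = 0.17) and when libraries were scaled by their totals (0.08, adjusted p = 0.68).

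Plin4 and Plin5 are neighbours on the same strand, with 1797 bases between them. Per kb of transcript, Plin5 was 3.37 and 3.73 times Plin4 in the Control libraries and 7.72, 6.95 and 7.53 times Plin4 in Prox1 OE replicates 1, 2 and 3. The ratio was thus higher in each Prox1 OE library than in either Control library. Among the 3 member perilipins, Plin2 made up 94.45% of the counts per kb in Control and 94.31% in Prox1 OE, Plin5 4.33% and 5.02%, and Plin4 1.22% and 0.68%. The shares of the CIDE genes overlapped between the groups, with means of 54.3% in Control and 52.82% in Prox1 OE for Cideb, 23.4% and 22.76% for Cidec and 22.3% and 24.41% for Cidea.

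**Figure D2:**
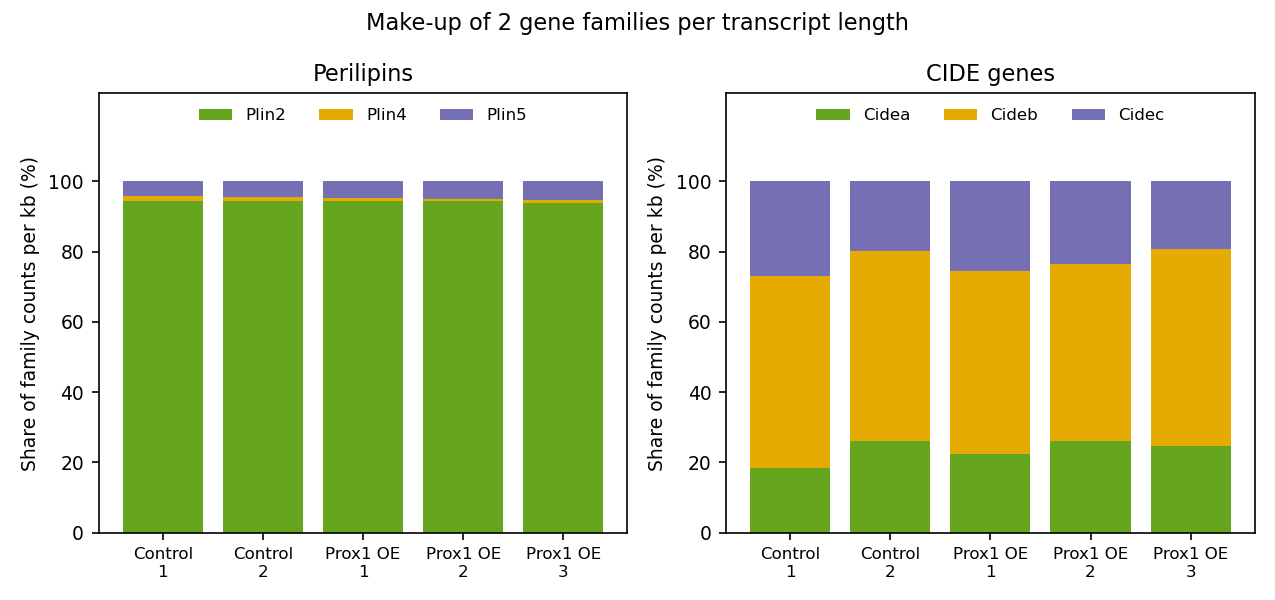
Share of each gene in the counts per kb of transcript of its family (%), as stacked bars for the 2 Control and 3 Prox1 OE libraries, with the member perilipins on the left and the CIDE genes on the right. Plin2 takes about the same share in every library, and the Cidec share spans 19.96% to 26.84% in Control and 19.23% to 25.58% in Prox1 OE.

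Fitm1 and G0s2 act on droplet formation and on lipid breakdown. Fitm1 (ENSMUSG00000022215, chromosome 14, 55575617 to 55576954), the FITM gene known mainly from skeletal muscle, had 752 and 816 normalised counts in Control and 3020.4, 3494 and 4199 in Prox1 OE. The lowest Prox1 OE value was 3.7 times the highest Control value, and the log2 fold change of 2.17 (SE 0.16, 95% interval 1.81 to 2.54) lay at the 98.7th percentile of all genes tested. G0s2 (ENSMUSG00000009633, chromosome 1, 193272161 to 193273217) encodes an inhibitor of the triglyceride lipase ATGL, which is the product of Pnpla2. It had 1697 and 1387 in Control and 6086, 4434 and 6315 in Prox1 OE, with no overlap and a log2 fold change of 1.85 (SE 0.18). Of the 6 skeletal muscle markers, Myh4 was at 0 in every library, and the summed level of the list was 84.8 and 150 normalised counts in Control and 17.4 to 42.8 in Prox1 OE, with Ckm at 111 in Control replicate 1 and at most 4.09 elsewhere. Of the 3 markers tested, 1 was called lower (Mb, log2 fold change -3.63, adjusted p = 0.014). Within Prox1 OE the sum came mostly from Acta1, at 12.3, 27.1 and 32.4 in replicates 1, 2 and 3, which was not called, while Mb and Ckm had at most 4.09. The part of muscle in the Fitm1 values was not tested.

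Fabp4 (ENSMUSG00000062515, chromosome 3, 10204088 to 10208576), a fatty acid carrier of fat cells, macrophages and endothelium and a classical PPARG target, did not move with the group. It had 4327 and 3794 normalised counts in Control and 3137, 4903 and 5147 in Prox1 OE. The Prox1 OE libraries fell on both sides of the Control values, with the highest 1.64 times the lowest. Its log2 fold change was 0.08 (95% interval -0.42 to 0.59) and it was not called. The sign changed with the total count as library size (-0.35, adjusted p = 0.18), and without Prox1 OE replicate 1 the value was 0.31 (adjusted p = 0.058).

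Within the Prox1 OE group, the order of the libraries differed between Prox1 and most members. Replicate 1, with the most Prox1, had the highest value for 2 members (Pparg and Cidec) and the lowest for 5 (Cidea, Cideb, Plin4, Fitm1 and Fabp4). Replicate 3, with the least Prox1, had the highest value for the other 8.

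Levels were compared between members only per kb of transcript. In Control, Plin2 led with 18551 ± 483 normalised counts per kb (SD, n = 2), followed by Fabp4 at 4532 ± 421 and Cideb at 4185 ± 472, whose ranges overlapped. Cidec, G0s2 and Cidea came next, at 1782, 1770.5 and 1745 per kb, and neighbours among these also overlapped. Plin5, Fitm1, Pparg and Plin4 were the lowest, at 849.5, 807, 404 and 240 per kb. Prox1 OE tumours kept Plin2 at the top, with 47401 ± 2292 (SD, n = 3), and Pparg and Plin4 at the bottom, with 735 ± 138 and 341 ± 24.2. Fabp4 was in second place in Control and in the sixth in Prox1 OE, where G0s2, Cidea, Cidec and Fabp4 did not differ beyond the range of their neighbours.

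Other lipid droplet genes were taken as a wider group of 18 genes beyond the members. Of 17 tested, 11 were called higher and 0 lower by limma's adjusted p, and the median log2 fold change was 0.68, beside 17.1% of all genes called higher and a median of -0.02. Pnpla3, a droplet-bound lipid hydrolase linked to fatty liver, had 113 and 247 normalised counts in Control and 782, 662 and 1697 in Prox1 OE. The groups did not overlap, with a log2 fold change of 2.52 (SE 0.46, limma adjusted p = 0.007). Mettl7b, a droplet-associated methyltransferase-like gene, had a log2 fold change of 1.83 (adjusted p = 0.0028). Hsd17b13, a droplet protein of hepatocytes, had one of 1.61 (adjusted p = 0.0023), and Mgll, the monoglyceride lipase, one of 1.4 (adjusted p = 0.0027).

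Of the genes that act in triglyceride breakdown, Pnpla2 (ATGL) rose by 0.61 (adjusted p = 0.0066) and its activator Abhd5 by 0.82 (adjusted p = 0.0053), while the hormone-sensitive lipase gene Lipe was not called (0.61, adjusted p = 0.085). Hilpda, Rab18, Spart, Ldah and Acsl3 were also not called, at -0.42, -0.03, -0.11, 0.29 and 0.38. These names, Pnpla2, Abhd5 and Lipe included, were taken after their values were seen. Plin1, the perilipin of fat cells, was not tested because it had at most 3.39 normalised counts in any library. With the total count as library size, 7 of the genes were called higher and 3 lower, and without Control replicate 1, 4 were called higher.

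**Figure D3:**
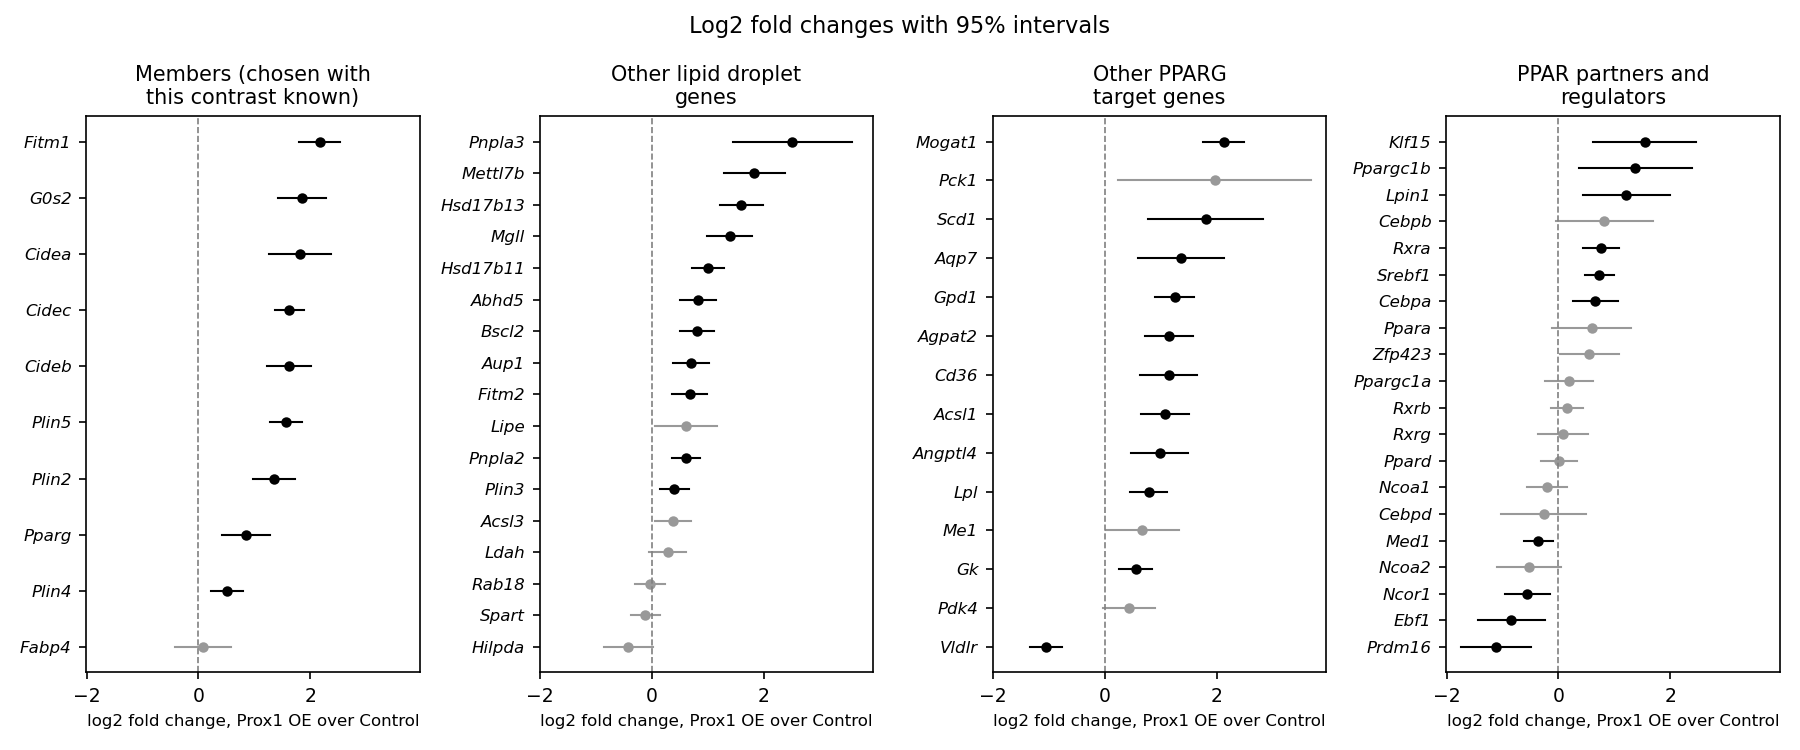
Log2 fold changes of Prox1 OE over Control (x axis) with 95% intervals from limma, for the members and 3 further lists, in black where the adjusted p was under 0.05 and in grey where it was not. Of the other lipid droplet genes 11 of 17, of the other PPARG target genes 10 of 14 and of the PPAR partners 6 of 21 were called higher, the axis is the same in all panels, and 1 tested gene of the last list is not drawn.

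Other PPARG target genes formed the next list. Several of these genes are also targets of PPARA, which is the main PPAR of hepatocytes. Of 14 genes, 10 were called higher and 1 lower, beside 17.1% and 16.2% of all genes, with a median log2 fold change of 1.11 beside -0.02. Mogat1, an enzyme of triglyceride synthesis, had 309 and 253 normalised counts in Control and 1165, 1155 and 1360 in Prox1 OE. Its groups were far apart, with a log2 fold change of 2.12 (SE 0.16, limma adjusted p = 0.0014). Scd1, the fatty acid desaturase, had 302492 and 425029 in Control and 1525472, 923897 and 1375333 in Prox1 OE, a log2 fold change of 1.8 (adjusted p = 0.019). Aqp7, a glycerol channel, and Gpd1, which makes glycerol phosphate, rose by 1.36 (adjusted p = 0.019) and 1.24 (adjusted p = 0.0026). Vldlr, a receptor that takes up triglyceride-rich lipoprotein, went the other way, from 2624 and 2997 in Control to 1343, 1429 and 1284 in Prox1 OE, a log2 fold change of -1.05 (adjusted p = 0.0025). The count of genes called higher depended on the Control libraries, with 2 without Control replicate 1 and 5 without Control replicate 2.

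PPAR partners and regulators held calls in both directions. Of 21 tested, 6 were called higher and 5 lower, beside 17.1% and 16.2% of all genes, with a median of 0.16 beside -0.02, and nothing is read from these counts about the list as a whole. The untested gene was Ebf2, which had at most 1 read in any library. Rxra, the RXR of hepatocytes, rose from 6002 and 7398 normalised counts in Control to 10948, 10720 and 12236 in Prox1 OE, a log2 fold change of 0.76 (SE 0.14, limma adjusted p = 0.0068). Klf15, a regulator of fasting metabolism, rose by 1.54 (adjusted p = 0.023), Ppargc1b by 1.38 (adjusted p = 0.045) and Lpin1, an enzyme and coactivator, by 1.22 (adjusted p = 0.029). Ppargc1b was low, at 17 to 72.9 normalised counts. Among the lower genes, the brown fat regulator Prdm16 had a log2 fold change of -1.11 (adjusted p = 0.018), Ebf1 of -0.84 (adjusted p = 0.042), the corepressor Ncor1 of -0.56 (adjusted p = 0.044) and Med1 of -0.36 (adjusted p = 0.044). Ppara, at 766 and 611 in Control and 1577, 724.5 and 971 in Prox1 OE, was not called (0.6, adjusted p = 0.17). The counts depended on the processing, with 2 higher and 8 lower under the total count as library size. In limma without the trend there were 2 higher and 1 lower. They depended on single libraries as well. Without Control replicate 1, 0 genes were called in either direction, without Control replicate 2 there were 3 higher and 0 lower, and without Prox1 OE replicates 2 and 3 the lower genes were 3 and 2.

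Fat cells were looked for because Pparg, Plin4 and Fabp4 are abundant in them. Of 8 adipocyte markers, only Adrb3 and Trarg1 passed the filter on low values. Lep was at 0 in every library, and Adipoq had at most 2.46 normalised counts in Control and 0 in Prox1 OE, which with 3 reads as the limit of a count of 0 allows up to 3.54 normalised counts. The summed level of the list was 64.1 and 66.1 in Control and 114 to 173 in Prox1 OE, and 1 of the 2 tested was called higher (Adrb3, 37.8 and 39 in Control and 63.7 to 126 in Prox1 OE, log2 fold change 1.22, adjusted p = 0.03). Their part in the member values was not tested.

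Macrophages and endothelium also hold Fabp4, and macrophages hold Pparg and Plin2. The 8 macrophage markers summed to 22178 and 18287 normalised counts in Control and 27148 to 43970 in Prox1 OE, and 1 of 8 was called higher (Clec4f, log2 fold change 1.58, adjusted p = 0.016), beside 17.1% of all genes. Their log2 fold changes ran from 0.43 to 1.58, with a median of 0.68 beside -0.02 over all genes tested. For 6 of the 8 every Prox1 OE value lay above both Control values, beside 30.9% of all genes. Lyz2, with the highest counts, had 13636 and 9021 in Control and 26966, 13777 and 15865 in Prox1 OE. The 8 endothelial markers summed to 12421 and 15143 in Control and 12985 to 16850 in Prox1 OE, and 1 of 8 was called higher (Stab2, log2 fold change 1.04, adjusted p = 0.011), while Eng and Cdh5 were not called (0.21 and -0.33). The 8 stellate cell markers summed to 73254 and 70715 in Control and 41228 to 46812 in Prox1 OE, and 2 of 8 were called lower, Col1a1 and Rgs5 (-1.23 and -0.77, adjusted p = 0.0033 and 0.0057), and 2 higher, Lrat and Reln (1.09 and 0.55, adjusted p = 0.0047 and 0.025). No marker of these 3 lists was at 0. Their part in the member values was not tested.

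Hepatocyte markers moved with the members. All 8 were called higher, with a median log2 fold change of 1.73, and Alb and Apoa1, with the highest counts, rose by 1.69 and 1.62 (adjusted p = 0.043 and 0.023). Of 8 cholangiocyte markers, 7 were called lower and 0 higher, Spp1 being the uncalled one (-0.34), while Sox9 fell by 1.21 (adjusted p = 0.0026). Member levels were therefore also set against hepatocyte genes of the same library, a comparison chosen after the values had been seen. Hnf4a, a regulator of hepatocyte identity, changed by 1.15 and the mean log2 level of the 8 markers by 1.83. Relative to Hnf4a, 5 members (Cidea, Cideb, Plin5, Fitm1 and G0s2) were above both Control values in all Prox1 OE libraries, by 0.66, 0.47, 0.42, 1.02 and 0.70. Cidec, Plin2 and Pparg overlapped, and Plin4 and Fabp4 were below, by -0.64 and -1.07. Of all genes tested, 3.77% were above and 83.2% below on this scale. Relative to the mean of the 8 markers, 7 members overlapped between groups, and Pparg, Plin4 and Fabp4 were below, by -0.98, -1.33 and -1.75. Here 0.725% of all genes tested were above and 90.0% below. The members were chosen with their fold changes known, so nothing is read from these counts. How much of the rise of each member goes with hepatocyte content was not tested.

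**Figure D4:**
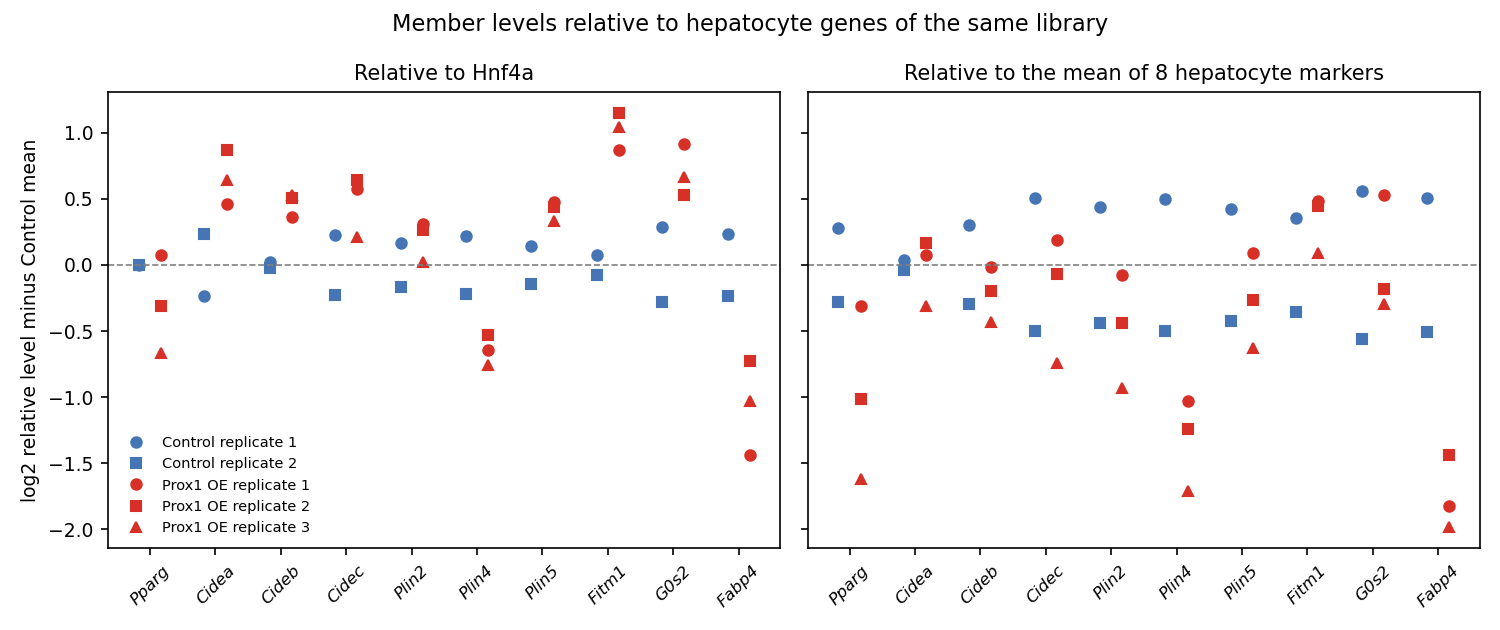
Log2 level of each member minus that of Hnf4a (left) or minus the mean log2 level of 8 hepatocyte markers (right) in the same library, with the Control mean set to 0, Control in blue, Prox1 OE in red and a symbol per replicate. On the left Fitm1 lies highest (mean difference 1.02) and on the right, where 90.0% of all genes lie below, the groups overlap for 7 members and lie apart for Pparg, Plin4 and Fabp4.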

How the data were processed

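RNA-seq libraries of 2 Control and 3 Prox1 OE tumours were prepared by the authors with the strand-keeping dUTP protocol and sequenced in pairs of 100 bases. Reads were mapped by the authors to mm10 with STAR. The counting tool, and how it used strand and reads shared between copies, are not given in the sources used here. The deposited values are a signal per gene, namely read counts scaled between libraries by DESeq2 size factors. A single read was worth 0.822 and 0.848 normalised counts in Control replicates 1 and 2. In Prox1 OE replicates 1, 2 and 3 it was worth 1.02, 1.18 and 1.16, so that this factor did not overlap between the groups. Dividing by it gave whole reads (tolerance 0.001) for 100% of values. Totals of 48740863 to 56629477 reads limit counting error only. The authors also deposited their own comparison (mean, shrunken log2 fold change, p and adjusted p), which was not used.

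Symbols, coordinates and transcript lengths (longest principal transcript) came from GENCODE M21 on GRCm38, the sequence of mm10, and 99.5% of identifiers matched. Because the values were normalised, limma 3.58.1 (R 4.3.3) with a mean-variance trend was fitted on log2(normalised count + 1) across the 17105 genes with a mean of at least 10, without covariates, two-sided, with Benjamini-Hochberg adjustment over all genes and a threshold of 0.05. Fold changes on this scale understate low genes. edgeR 4.0.16 and DESeq2 1.42.0 were run on the recovered reads as alternatives. The fit was also run on simulated counts in which few genes changed, in both directions. That run does not cover data with as many calls as here, or with scaling that differs between the groups. Members and lists were chosen with earlier results of these data known. Named genes were the 10 members, Prox1, up to 4 called genes per direction with the largest change from each pathway list, the 2 most abundant markers per cell type with any at 0, and the 3 genes closest in profile to Pparg. Hnf4a, Med1, Ppara, Ebf2, Plin1, Adipoq, Nop9, Pnpla2, Abhd5, the other macrophage markers, Stab2, Lrat, Reln, Mb and the uncalled droplet genes were named besides after their values were seen. The values of 1 gene of the PPAR partner list, which counts in the list's totals, are not reported here.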

Additional observations from a re-analysis of the deposited data

How the results depend on the processing

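The 9 members called higher kept that direction under all 15 other settings tried on the normalised or recovered counts, and 9 were called in 12 of them. With the total count as library size 7 were called, without Control replicate 1 again 7 and without Control replicate 2 8, Plin4 being lost in all 3 and Pparg in the first 2. That scaling moved the median of all genes from -0.02 to -0.45 and the share of calls that were higher from 51.4% to 17.7%. Under the size factors a read counted for more in each Prox1 OE library than in either Control library. Without them each member was lower by a similar step, for example Fitm1 from 2.17 to 1.74 and Plin4 from 0.51 to 0.08. Other lipid droplet genes then had 7 called higher and 3 lower, and PPAR partners 2 higher and 8 lower. PPAR partners had 2 higher and 1 lower in limma without the trend, 2 lower with no filter and 3 lower with edgeR. Why the counts moved in these last fits was not tested, nor was which scaling is closer to the RNA content of the tumours. Over all genes, 2933 were called higher and 2769 lower, against 1472 and 6856 with the total count, 681 and 477 without Control replicate 1, 1436 and 834 without Control replicate 2, and 2139 and 1740 without Prox1 OE replicate 2.

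Over fits that each left out a library, other lipid droplet genes called higher ran from 4 to 11, other PPARG target genes from 2 to 11, and PPAR partners from 0 to 6 higher and from 0 to 5 lower. Where a Control library was left out, the other was assumed to vary like Prox1 OE. Fabp4 changed sign with the total count (-0.35), without Control replicate 2 (-0.01) and without Prox1 OE replicate 2 (-0.01) or 3 (-0.047), and ran from -0.047 to 0.31 over these fits.

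Relative to Hnf4a, the sign turned for Pparg (-0.30), Plin4 (-0.64) and Fabp4 (-1.07). Relative to the mean of the 8 hepatocyte markers it turned for Pparg (-0.98), Cidea (-0.025), Cideb (-0.22), Cidec (-0.21), Plin2 (-0.48), Plin4 (-1.33), Plin5 (-0.27) and Fabp4 (-1.75). These references were added after seeing the data.

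Replicate numbers are shared between the groups, but no label ties them to an animal or day, and the deviations of the 2 pairs correlated by 0.14 and 0.02 across genes. A fit blocked on these numbers, for which Prox1 OE replicate 3 has no partner and was left out, called 3 PPAR partners lower and 9 members higher, and gave -0.047 for Fabp4. With 2 Control libraries, no exact permutation test of a single gene can pass 0.05.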
